A study of Mus musculus with 12 samples.

Results

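The renin-angiotensin system genes described here are *Agt*, *Ace*, *Enpep*, *Lnpep*, *Agtr1a* and *Agtr2*, 6 of the 16152 genes with deposited counts. They were taken by their symbols, from a list chosen with earlier results of these data known. All 6 passed the filter on low counts (at least 1 CPM, the count scaled to the mapped reads of its library, in at least 3 libraries), which 15994 genes passed. RNA of whole lungs of wild-type C57Bl/6 mice was sequenced at 2 embryonic time-points, E15.5 and E18.5, and at 2 postnatal time-points, P5 and P8. Each time-point had 3 replicates, giving 12 libraries, and no group was treated or carried an altered allele. Females and males were both collected. As each time-point was sampled from 1 litter, litter and time-point cannot be told apart. The lung is a mixture of cell types, and in bulk tissue fewer cells of a type and less RNA per cell cannot be told apart.

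The libraries held between 41337443 and 53901957 counts. All 6 lung epithelial genes, *Nkx2-1* and *Sftpc* among them, were at 1 CPM or more in every library. Some libraries also stood high for genes known from tissues that lie beside the lung. Where this RNA came from was not tested. Summed heart genes stood at 802 and 989 CPM in E15.5 replicates 1 and 2 and between 48.3 and 301 CPM elsewhere. Adipose genes reached 125 CPM in P5 replicate 3 and 336 and 672 CPM in P8 replicates 1 and 2, against at most 23.4 CPM elsewhere. Thymus genes summed to 19.5 CPM in E15.5 replicate 2 and to 156 and 305 CPM in P8 replicates 1 and 2, against at most 14.4 CPM elsewhere. Without any of these 3 sets of libraries, the same 5 genes were called between E18.5 and P5.

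Angiotensinogen, encoded by *Agt*, is the only known precursor of the angiotensin peptides. Renin releases angiotensin I from it, and angiotensin-converting enzyme, encoded by *Ace*, trims angiotensin I to angiotensin II, a step for which the lung capillary bed is a classical site. Angiotensin II acts through the type 1 receptor (*Agtr1a* and its rodent paralog *Agtr1b*), which constricts vessels, and through the type 2 receptor (*Agtr2*), which often opposes it and is known for its expression in fetal tissue. Aminopeptidase A (*Enpep*) shortens angiotensin II to angiotensin III, and the insulin-regulated aminopeptidase (*Lnpep*) is the binding site of angiotensin IV.

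For every gene but *Lnpep*, the largest difference between neighbouring time-points lay between E18.5 and P5. This interval includes birth and is longer than either of its neighbours, so birth and the longer time cannot be told apart. *Agt*, *Ace*, *Enpep* and *Agtr1a* rose, *Agtr2* fell, and *Lnpep* changed by less than the fold cutoff. The call asked for an absolute log2 fold change over 1 together with an edgeR FDR below 0.05. By this rule, 4 of the 6 genes were called higher and 1 lower from E18.5 to P5, where 17.5% of all tested genes were called higher and 9.34% lower. The median log2 fold change of the 6 genes was 1.91, against -0.0024 over all genes tested. From E15.5 to E18.5, only *Ace* was called, higher at E18.5, and none was called lower, where 1.59% of tested genes were called higher and 1.46% lower. At the FDR cutoff alone, 4 of the 6 genes were higher at E18.5, against 11.6% of tested genes. From P5 to P8, edgeR called 0 of the 6 genes in either direction, where 2.88% of tested genes were called higher and 0.0875% lower. DESeq2 also called 0, and 1 of the 6 genes, *Agtr1a*, had an unadjusted edgeR p under 0.05. Over the whole interval from E15.5 to P8, 4 genes were called higher and 1 lower, where 20.9% of tested genes were called higher and 11.5% lower.

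**Figure D1:**
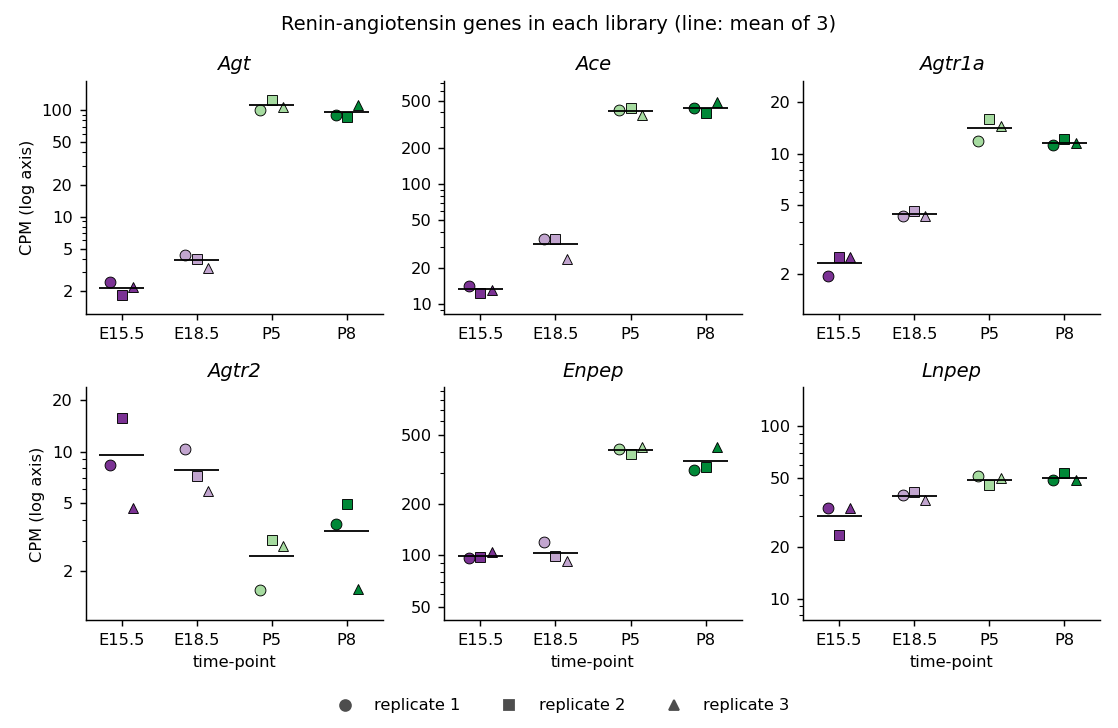
CPM of the 6 genes on log axes in each of the 12 libraries, by time-point, with the replicate number as symbol and a line at the mean of 3. *Agt*, *Ace*, *Enpep* and *Agtr1a* stood higher in all P5 and P8 libraries than in any E15.5 or E18.5 library, *Agtr2* was lower at P5 than at E18.5 and spread most within a time-point, and *Lnpep* moved least.

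The promoters of the 3 genes that rose most from E18.5 to P5 (*Agt*, *Ace* and *Enpep*) and of the gene that fell over that interval (*Agtr2*) are shown as the stretches of 170 bases just before the earliest annotated start, from the RefSeq promoter table on GRCm38.p6, which held an entry for 5 of the 6 genes and none for *Agtr1a*. Capitals mark the TATA box TATAAA, the CCAAT box CCAAT, the GC box GGGCGG, the steroid receptor half-site AGAACA and the E-box CANNTG, each searched on both strands. 2 of the GC boxes of *Ace* overlap.
Agt, chr8:124569707-124569876, minus strand: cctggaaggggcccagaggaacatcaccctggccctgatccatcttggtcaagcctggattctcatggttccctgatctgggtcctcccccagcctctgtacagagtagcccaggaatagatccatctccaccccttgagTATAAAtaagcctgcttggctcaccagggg
Ace, chr11:105967775-105967944, plus strand: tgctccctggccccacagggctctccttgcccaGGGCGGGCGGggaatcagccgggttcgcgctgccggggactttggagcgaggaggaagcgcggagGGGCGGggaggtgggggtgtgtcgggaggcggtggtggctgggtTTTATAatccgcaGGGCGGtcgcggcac
Enpep, chr3:129332750-129332919, minus strand: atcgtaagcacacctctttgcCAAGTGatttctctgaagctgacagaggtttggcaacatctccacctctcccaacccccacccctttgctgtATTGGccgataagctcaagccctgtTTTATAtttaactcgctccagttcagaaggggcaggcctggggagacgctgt
Agtr2, chrX:21484374-21484543, plus strand: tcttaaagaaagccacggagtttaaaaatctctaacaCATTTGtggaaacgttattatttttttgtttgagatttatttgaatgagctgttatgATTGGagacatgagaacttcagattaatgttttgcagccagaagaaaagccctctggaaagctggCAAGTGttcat

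The TATA box letters stood at 1 place in each of the stretches of *Agt*, *Ace* and *Enpep*, with the first base at -30 in *Agt*, -28 in *Ace* and -52 in *Enpep* relative to that start, and not in the stretch of *Agtr2*. Of 32851 promoters in the table, 8.40% held these letters in the same window. The stretch of *Ace* held 4 GC boxes, a motif found in 29.8% of promoters, and the other 3 stretches held none. *Enpep* and *Agtr2* each held 1 CCAAT box, found in 26.6% of promoters. The half-site was in none of the 4 stretches and in 10.9% of promoters. E-box letters, found in 51.9% of promoters, stood at 2 places in the stretch of *Agtr2* and at 1 in that of *Enpep*. A match is a run of letters, not a site shown to be bound.

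*Agt* (ENSMUSG00000031980, GRCm38 chr8:124556534-124569706, minus strand) encodes the precursor, for which the liver is the main textbook source. The E15.5 replicates 1 to 3 held 2.42, 1.83 and 2.16 CPM, and the E18.5 replicates 4.37, 3.96 and 3.31. The P5 replicates held 100.3, 125 and 106 CPM and the P8 replicates 90.3, 85.7 and 111. All prenatal libraries lay below 5 CPM and all postnatal ones above 80, and the E15.5 and E18.5 libraries did not overlap either. Across birth, between E18.5 and P5, the mean rose 28.5-fold, from 3.88 ± 0.533 to 111 ± 12.8 CPM (SD, n = 3; edgeR log2 fold change 4.92, SE 0.15, FDR = 2.3e-10). This log2 fold change stood at percentile 98.6 of the tested genes, the highest of the 6. Before birth, between E15.5 and E18.5, the change was 0.86 on the log2 scale (SE 0.15, edgeR FDR = 0.0030), short of the fold cutoff, and its edgeR FDR was 0.059 without E15.5 replicates 1 and 2. P5 and P8 overlapped (log2 fold change -0.22, SE 0.12, edgeR FDR = 0.21).

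Other tissues that make angiotensinogen were followed by their own genes. The 6 liver genes, which include albumin, summed to 2.06 to 3.04 CPM at P5 and to 13.4, 119 and 41.0 CPM in replicates 1 to 3 at P8. The 4 adipose genes, among them *Ucp1* and *Adipoq*, summed to 3.48, 23.4 and 125 CPM in replicates 1 to 3 at P5. Without the 3 libraries with the highest adipose sums (P5 replicate 3 and P8 replicates 1 and 2), *Agt* was called from E15.5 to P8 at a log2 fold change of 5.77. The part of liver and adipose tissue in the level of *Agt* was not tested.

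*Ace* (ENSMUSG00000020681, GRCm38 chr11:105967945-105989964, plus strand) encodes angiotensin-converting enzyme, an ectoenzyme of endothelium. The E15.5 replicates held 14.3, 12.4 and 13.2 CPM and the E18.5 replicates 35.2, 35.3 and 23.9. The P5 replicates held 415, 436 and 382 CPM and the P8 replicates 431, 391 and 485. The 3 levels (E15.5, E18.5 and the postnatal libraries) did not overlap, whereas P5 and P8 did. Between the embryonic time-points the mean rose 2.37-fold, from 13.3 ± 0.919 to 31.5 ± 6.55 CPM (log2 fold change 1.25, SE 0.14, edgeR FDR = 4.7e-04). Between E18.5 and P5 it rose 13.05-fold, to 411 ± 26.9 CPM (log2 fold change 3.79, SE 0.15, edgeR FDR = 1.5e-09). Between P5 and P8 the change was 0.07 on the log2 scale (SE 0.13, edgeR FDR = 0.76). Counts were summed over the gene, so the somatic transcript and the shorter germinal one, which share exons, are not separated.

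The endothelial genes rose over the same interval by less than *Ace*. All 8 of them (*Pecam1*, *Cdh5*, *Kdr*, *Tek*, *Tie1*, *Emcn*, *Cldn5* and *Erg*) were at 1 CPM or more in every library. From E18.5 to P5, where 17.5% of tested genes were called higher, 6 of the 8 were called higher. At the FDR cutoff alone, where 35.4% of tested genes were higher, all 8 were higher and none was lower. Their sum ranged over 943 to 1024 CPM (E15.5), 1245 to 1349 (E18.5), 2775 to 2911 (P5) and 2356 to 2837 (P8), with the P5 mean at 2.15 times the E18.5 mean. The summed P5 mean was 1.96 times that of E18.5 for the 6 genes of general capillary cells and 1.32 times for the 5 genes of aerocytes, the Car4-positive capillary cells. Most of the mean aerocyte sum (687 CPM at E18.5 and 903 at P5) was *Tbx2*, at means of 424 and 491 CPM. Of the 6 general capillary genes, 4 were called higher, and at the FDR cutoff alone 5 were higher and 1 lower. Of the 5 aerocyte genes, 3 were called higher, and at the FDR cutoff alone 4 were higher and 1 lower. The shares of tested genes were 17.5% called higher, and 35.4% higher and 35.7% lower at the FDR cutoff alone. Most genes of these lists thus rose, by unlike amounts. *Gpihbp1*, which anchors lipoprotein lipase on capillaries, rose 6.87-fold. *Car4* rose 175-fold, from only 10, 18 and 31 counts in the E18.5 replicates. *Aplnr*, a general capillary gene, was at 0.706 of its E18.5 mean (log2 fold change -0.42, edgeR FDR = 8.5e-04) and *Ednrb*, an aerocyte gene, at 0.695 (log2 fold change -0.44, edgeR FDR = 8.6e-04), both under the fold cutoff. *Ace* is not in the endothelial sum. Relative to that sum, its CPM stood at 1.35% ± 0.0806 (E15.5), 2.39% ± 0.402 (E18.5), 14.5% ± 0.734 (P5) and 17.2% ± 0.664 (P8), each over 3 replicates (SD). The part of endothelial cell number in the rise of *Ace* was not tested.

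**Figure D2:**
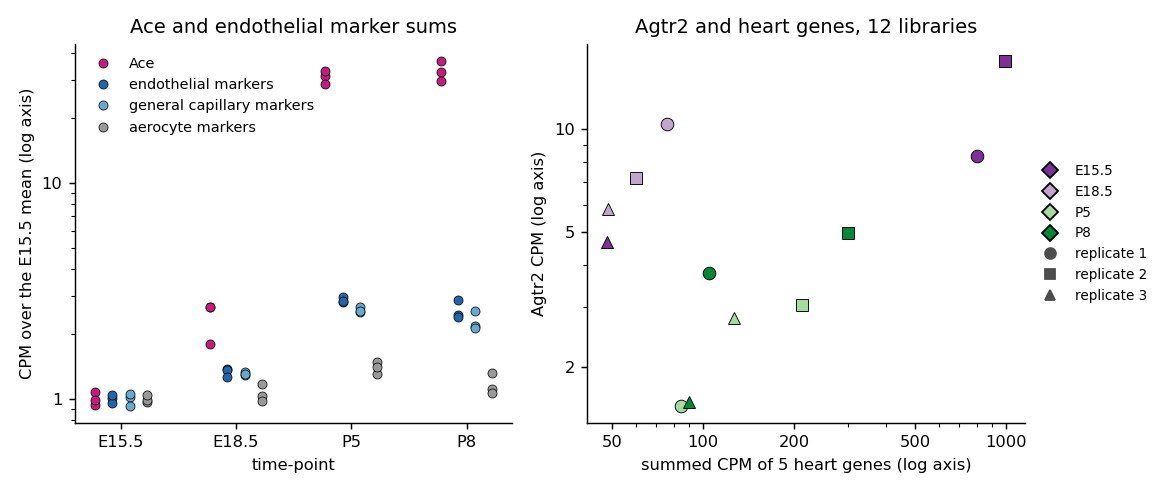
Left, CPM over the E15.5 mean on a log axis for *Ace* and for the summed endothelial, general capillary and aerocyte genes, each point a library; the P5 mean was 13.05 times the E18.5 mean for *Ace* and 2.15 times for the endothelial sum. Right, *Agtr2* CPM against the summed CPM of 5 heart genes on log axes in the 12 libraries, with time-point as color and replicate as symbol; within each time-point both stood in the same order of libraries.

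*Enpep* (ENSMUSG00000028024, GRCm38 chr3:129269175-129332720, minus strand) encodes aminopeptidase A, a surface peptidase known on pericytes, on some epithelia and, as the BP-1 antigen, on early B cells. The E15.5 replicates held 97.0, 97.4 and 105 CPM and the E18.5 replicates 119, 99.8 and 93.1, so these time-points overlapped. The P5 replicates held 413, 389.5 and 426 CPM and the P8 replicates 312, 328 and 426. Unlike *Ace* and *Agt*, *Enpep* stood near 100 CPM in every prenatal library. Across birth the mean rose 3.94-fold (log2 fold change 2.06, SE 0.12, edgeR FDR = 2.0e-08). On the log2 scale it differed by 0.07 between the embryonic time-points (SE 0.11, edgeR FDR = 0.72) and by -0.23 between P5 and P8 (SE 0.11, edgeR FDR = 0.19). P8 replicate 3 stood above the other P8 libraries, and without it the last value was -0.38 (edgeR FDR = 0.020), still short of the fold cutoff.

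The 8 pericyte genes, all at 1 CPM or more in every library, summed to 326 to 395 CPM (E15.5), 424 to 467 (E18.5), 589 to 621 (P5) and 533 to 589 (P8), with the P5 mean at 1.34 times the E18.5 mean. Of the 8, 3 were called higher, namely *Trpc6* (5.47-fold), *Higd1b* (4.52-fold) and *Cox4i2* (2.74-fold). At the FDR cutoff alone 5 were higher and 2 lower, the latter *Cspg4* and *Kcnj8*, which was at 0.538 of its E18.5 mean. Of all tested genes, 17.5% were called higher, and at the FDR cutoff alone 35.4% were higher and 35.7% lower. The 4 B cell genes summed to between 1.76 and 2.44 CPM over the prenatal libraries, with *Ms4a1* at 0 counts in at least 1 library, and to between 44.8 and 55.3 CPM at P5. Most of the prenatal sum was *Cd79b*, at 1.23 to 2.11 CPM in these libraries. The P5 sum of the 6 epithelial genes was 6.94 times that of E18.5, most of it *Sftpc*. In mean CPM, *Sftpc*, *Sftpb* and *Lamp3*, genes of AT2 cells, were at 8.67, 18.7 and 18.3 times their E18.5 means. *Epcam*, *Nkx2-1* and *Cdh1*, which epithelial cells share more widely, were at 0.306, 0.649 and 0.815 of theirs. The part of these cell types in the rise of *Enpep* was not tested.

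*Lnpep* (ENSMUSG00000023845, GRCm38 chr17:17521410-17625050, minus strand) encodes a membrane aminopeptidase that also cleaves oxytocin and vasopressin and travels with the glucose transporter of fat and muscle. The E15.5 replicates held 33.5, 23.5 and 33.6 CPM and the E18.5 replicates 39.7, 41.8 and 37.3. The P5 replicates held 51.2, 45.3 and 50.1 CPM and the P8 replicates 48.5, 53.4 and 49.1. Apart from P5 and P8, which overlapped, the time-points stood apart in a narrow range. The fitted log2 change was 0.40 between E15.5 and E18.5 (SE 0.12, edgeR FDR = 0.034) and 0.39 between E18.5 and P5 (SE 0.12, edgeR FDR = 0.010). Over the whole interval it came to 0.81 (SE 0.12, edgeR FDR = 4.7e-05), a 1.67-fold rise in CPM that stayed under the fold cutoff. At the FDR cutoff alone, 5 of the 6 genes, *Lnpep* included, were higher at P5 than at E18.5, against 35.4% of tested genes, and 1 was lower, against 35.7%. The same 5 were higher at P8 than at E15.5, against 37.6% of tested genes. The step from E15.5 to E18.5 was the least firm: without E15.5 replicate 2 its FDR was 0.068, without E18.5 replicate 1 0.093, and without E18.5 replicate 2 0.10 (edgeR). Without P5 replicate 1, the step from E18.5 to P5 had an edgeR FDR of 0.053.

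*Agtr1a* (ENSMUSG00000049115, GRCm38 chr13:30336441-30382867, plus strand) encodes the main type 1 receptor of the mouse. The E15.5 replicates held 1.94, 2.5 and 2.52 CPM and the E18.5 replicates 4.33, 4.67 and 4.34. The P5 replicates held 11.9, 16.0 and 14.5 CPM and the P8 replicates 11.2, 12.2 and 11.5. The levels rose in steps that did not overlap up to P5, and P8 overlapped with P5 at its lower end. Across birth the mean of 4.45 ± 0.194 CPM rose 3.17-fold, to 14.1 ± 2.08 (log2 fold change 1.75, SE 0.13, edgeR FDR = 1.6e-07). The earlier log2 fold change, of 0.95 between the embryonic time-points (SE 0.13, edgeR FDR = 0.0013), lay just under the fold cutoff, and it lay just over it without E15.5 replicate 2 (1.01) or E15.5 replicate 3 (1.02). Between P5 and P8 it was -0.30 (SE 0.13, unadjusted p = 0.037, edgeR FDR = 0.12). Relative to the pericyte sum, of which it is not a part, *Agtr1a* stood at 0.990% ± 0.0552 at E18.5 and 2.33% ± 0.288 at P5 (SD, n = 3). The part of pericyte number in its rise was not tested.

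*Agtr1b*, the paralog, shares 90.8% of the 1080 coding bases of *Agtr1a*, with a longest identical run of 66 bases, in the Gencode vM21 transcripts. The paired reads were each longer than this run, so no full read matched both coding sequences without a mismatch. Reads of one could still be lost or assigned to the other where mismatches were allowed. How many were was not counted, so the values of both are uncertain to that extent. The *Agtr1b* replicates held 2.18, 1.93 and 3.28 CPM (E15.5), 2.55, 2.16 and 2.60 (E18.5), 1.16, 1.03 and 1.61 (P5), and 1.13, 1.47 and 1.64 (P8). It was lower at P5 than at E18.5 without overlap, by a log2 fold change of -0.85 (SE 0.26, edgeR FDR = 0.012), while *Agtr1a* was higher.

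*Agtr2* (ENSMUSG00000068122, GRCm38 chrX:21484544-21489164, plus strand) encodes the type 2 receptor. The E15.5 replicates held 8.36, 15.8 and 4.66 CPM and the E18.5 replicates 10.3, 7.18 and 5.84. The P5 replicates held 1.54, 3.03 and 2.79 CPM and the P8 replicates 3.78, 4.97 and 1.58. The E15.5 and E18.5 libraries overlapped, as did those of P5 and P8, and all E18.5 libraries lay above all P5 and P8 ones. Across birth the E18.5 mean was 3.17 times the P5 mean, falling from 7.79 ± 2.31 to 2.46 ± 0.802 CPM (log2 fold change -1.59, SE 0.47, edgeR FDR = 0.0092). On the log2 scale the embryonic time-points differed by -0.29 (SE 0.45, edgeR FDR = 0.68) and the postnatal ones by 0.48 (SE 0.47, edgeR FDR = 0.51). Over the whole interval the change was -1.40 (SE 0.47, edgeR FDR = 0.015), and E15.5 replicate 3 overlapped with P8. Between E18.5 and P8 the difference was at the edge of the cutoff (log2 fold change -1.11, edgeR FDR = 0.046) and kept its call under 16 of 24 alternatives. The highest FDR was 0.16, without E18.5 replicate 1.

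*Agtr2* differed more between libraries of one time-point than any of the other 5 genes. Its highest library was 3.40 times its lowest among E15.5 libraries, 1.77 times among E18.5, 1.97 times among P5 and 3.15 times among P8 libraries, where the other 5 genes reached at most 1.47 times at any time-point. Within each time-point, genes of the heart, an organ next to the lung, stood in the same order of libraries as *Agtr2*. The 5 heart genes (*Myh6*, *Myl7*, *Nppa*, *Tnni3* and *Actc1*) summed to 802, 989 and 48.3 CPM in E15.5 replicates 1 to 3. They summed to 48.6 to 76.0 CPM (E18.5), 84.5 to 212 (P5) and 89.6 to 301 (P8). Of these genes *Nppa* was at 0 counts in at least 1 library. The 3 libraries stood in the same order for *Agtr2* and for the heart sum at 4 of 4 time-points, which was so for no other of the 14 marker lists. All 14 lists were compared, and at P8 the B cell, thymus and adipose sums also stood in the order of *Agtr2*. From E18.5 to P5 the mean heart sum rose 2.29-fold, while *Agtr2* fell.

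E15.5 replicates 1 and 2 had the highest heart sums. Without them, with E15.5 replicate 3 alone left, the log2 fold change of *Agtr2* from E15.5 to P8 was -0.37, short of the fold cutoff. Without E15.5 replicate 2 alone the value was -0.84 (edgeR FDR = 0.099). The fall from E18.5 to P5 kept its call under all 24 alternatives, at log2 fold changes between -1.77 and -1.32. The highest edgeR FDR among them was 0.041. The part of other tissue in the spread of *Agtr2* was not tested.

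**Figure D3:**
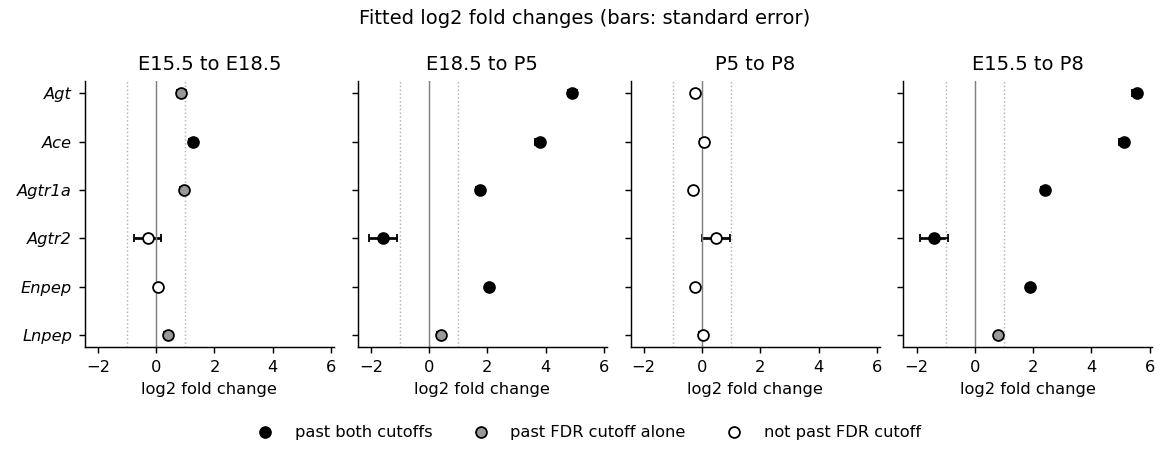
Fitted log2 fold changes of the 6 genes (x axis) in 4 comparisons, with bars for the standard error, dotted lines at the fold cutoff and the fill of a point showing which cutoffs it passed. From E18.5 to P5, 5 of the 6 genes passed both cutoffs, 4 of them higher and *Agtr2* lower; from P5 to P8 none passed the FDR cutoff.

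Since both receptor genes bind the same peptide and moved in opposite directions from E18.5 to P5, their counts were set against each other within each library. For 1 read of *Agtr2* there were 0.232, 0.158 and 0.540 reads of *Agtr1a* in E15.5 replicates 1 to 3 and 0.419, 0.651 and 0.743 at E18.5. There were 7.70, 5.27 and 5.18 at P5 and 2.96, 2.45 and 7.26 at P8. *Agtr2* therefore had more reads than *Agtr1a* in all 6 prenatal libraries and fewer in all 6 postnatal ones, and this also held per kilobase of exon. The ratio leaves out *Agtr1b*, the other type 1 receptor gene, at 3.28 CPM in E15.5 replicate 3 and 2.60 in E18.5 replicate 3. *Agtr1a* held 2.52 and 4.34 CPM there and *Agtr2* 4.66 and 5.84. In both libraries the type 1 receptor genes together stood above *Agtr2*, so the ratio is not that of the receptor types. The mean log2 ratio was -1.88 ± 0.907 (E15.5), -0.77 ± 0.433 (E18.5), 2.57 ± 0.322 (P5) and 1.90 ± 0.835 (P8), each with the SD over 3 replicates. The difference of 3.33 from E18.5 to P5 had an exact two-sided permutation p of 0.1, which is the smallest that 3 against 3 libraries allow. This p was fixed in advance, since each gene's E18.5 and P5 libraries stood apart, in opposite directions. It therefore adds nothing to the tests of the single genes. The differences of 1.12 from E15.5 to E18.5 (exact permutation p = 0.2) and of -0.66 from P5 to P8 (exact permutation p = 0.3) lay within overlapping libraries.

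**Figure D4:**
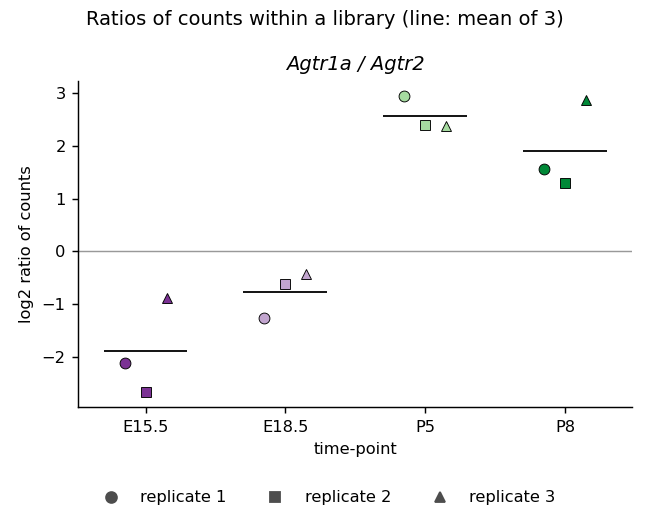
Log2 ratio of counts of *Agtr1a* over *Agtr2* (y axis) within each of the 12 libraries, by time-point, with the replicate number as symbol and a line at the mean of 3 replicates. The ratio lay below 0 in all 6 prenatal libraries and above 0 in all 6 postnatal ones, with a mean of -0.77 at E18.5 and 2.57 at P5.

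Levels between genes were compared per kilobase of exon, with all annotated exons of a gene joined. *Enpep* was first in every library of E15.5, E18.5 and P5, and *Ace* in every library of P8. At E15.5 *Enpep* was at 21.2 ± 0.962 CPM per kilobase, followed by *Agtr2* (2.89 ± 1.71), *Ace* (2.51 ± 0.174) and *Lnpep* (2.14 ± 0.409), whose libraries overlapped, and by *Agt* (1.13 ± 0.157) and *Agtr1a* (0.832 ± 0.118). At E18.5 *Ace* (5.96 ± 1.24) was next to *Enpep* (22.1 ± 2.87), while the libraries of *Agtr2* (1.76 to 3.11 CPM per kilobase) overlapped those of *Lnpep* and those of *Agt*, and *Agtr1a* was last. At P5 *Enpep* (87.0 ± 3.93), *Ace* (77.7 ± 5.09) and *Agt* (58.4 ± 6.76) formed a high group and *Agtr1a* (5.06 ± 0.747), *Lnpep* (3.46 ± 0.221) and *Agtr2* (0.739 ± 0.241) a low one. At P8 *Ace* (82.4 ± 8.89) and *Enpep* (75.5 ± 13.1) overlapped. After birth both receptor genes lay below *Agt*, *Ace* and *Enpep* in every library. *Agtr1a* was last of the 6 in every prenatal library and *Agtr2* in every postnatal one.

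The rest of the pathway was described by a list of 24 other genes, of which 18 passed the filter on low counts. From E18.5 to P5, 6 of the 18 were called higher and 1 lower, and 11 were not called, with a median log2 fold change of 0.60 against -0.0024 over all tested genes. At this step 17.5% of tested genes were called higher and 9.34% lower. Between E15.5 and E18.5, edgeR called 2 higher and 0 lower, against 1.59% and 1.46% of tested genes. There, 10 had an unadjusted edgeR p under 0.05. Between P5 and P8, edgeR called 0 in either direction, where 2.88% of tested genes were called higher and 0.0875% lower. There, 8 had an unadjusted edgeR p under 0.05. The share of all tested genes at that unadjusted p was not counted, so the 10 and the 8 stand without a background. From E15.5 to P8, 7 were called higher and 1 lower, against 20.9% and 11.5% of tested genes.

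Upstream of angiotensin I the lung held little renin RNA. *Ren1* did not pass the filter, with 23, 55 and 19 counts in E15.5 replicates 1 to 3, 46, 6 and 14 in those of E18.5, 17, 5 and 3 in those of P5, and 18, 13 and 14 in those of P8. Its highest level, in E15.5 replicate 2, was 1.08 CPM. The prorenin receptor gene *Atp6ap2*, which is also a part of the vacuolar proton pump, had means of 51.2 ± 1.96 CPM (E15.5) and 65.5 ± 2.14 CPM (P8) and was not called in any comparison. *Ctsd*, an aspartic protease of lysosomes related to renin, rose 2.82-fold from E18.5 to P5 (log2 fold change 1.59, SE 0.17, edgeR FDR = 3.4e-06).

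Some mast cell chymases are other enzymes that form angiotensin II. Whether the products of the mouse genes below do so was not measured. *Cma1*, mast cell chymase, was at 1.81, 2.03 and 3.0 CPM at E18.5 and 9.33, 7.60 and 8.20 at P5, a 3.67-fold rise (log2 fold change 1.97, SE 0.24, edgeR FDR = 9.6e-06). *Mcpt4*, another chymase, had 3, 2 and 2 counts at E15.5 and 5, 13 and 20 at E18.5 (log2 fold change 2.44, SE 0.47, edgeR FDR = 0.0045). That call was lost without E15.5 replicates 1 and 2 (log2 fold change 2.54, edgeR FDR = 0.10). It had 489, 307 and 356 counts at P5 (log2 change across birth 4.87, SE 0.32, edgeR FDR = 5.7e-08). *Cpa3*, the mast cell carboxypeptidase and not a chymase, rose 2.84-fold from E18.5 to P5 (edgeR FDR = 0.0017). These genes are at once members of the mast cell list. Its 7 genes summed to between 74.6 and 78.0 CPM at E18.5 and between 154 and 160.4 at P5, most of it *Kit* (means of 70.6 and 128 CPM), which general capillary cells also express. Without *Kit*, the other 6 summed to between 4.35 and 6.81 CPM at E18.5 and between 26.0 and 31.2 at P5. The part of mast cell number was not tested.

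Of the peptidases that act on angiotensin peptides, *Mme* (neprilysin) rose from 14.3 ± 2.93 to 101 ± 2.29 CPM from E18.5 to P5, a 7.09-fold rise (log2 fold change 2.91, SE 0.15, edgeR FDR = 9.2e-09). *Anpep* (aminopeptidase N) rose 4.80-fold (log2 fold change 2.35, SE 0.16, edgeR FDR = 6.8e-08). *Thop1* (thimet oligopeptidase) was the 1 gene called lower, at 58.0, 53.2 and 61.9 CPM at E18.5 and 21.8, 26.2 and 25.7 at P5 (log2 fold change -1.15, SE 0.085, edgeR FDR = 1.5e-07).

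Among receptors and their partners, *Mas1*, a receptor gene for a shortened angiotensin peptide, had at most 19 counts in a library and was at 0 counts in E15.5 replicate 2 and P8 replicate 2. A count of 0 in the first of these libraries allows up to 0.0590 CPM, and in the second up to 0.0490 CPM. *Agtrap*, which encodes a protein that binds the type 1 receptor, was called only over the whole interval, from 22.3 ± 0.834 CPM at E15.5 to 42.8 ± 1.25 at P8 (log2 fold change 1.02, SE 0.073, edgeR FDR = 6.7e-08). *Bdkrb2*, a receptor gene of bradykinin, the other classical substrate of *Ace*, held 1.79, 2.01 and 1.34 CPM in the E15.5 replicates and 8.01, 3.73 and 2.53 in those of E18.5 (log2 fold change 1.48, SE 0.34, edgeR FDR = 0.011). Without E18.5 replicate 1 this value was 0.87 (edgeR FDR = 0.029), under the fold cutoff, and without E15.5 replicates 1 and 2 it was 1.82 (edgeR FDR = 0.091). It then stood at 7.47, 8.49 and 7.33 CPM at P5.

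**Figure D5:**
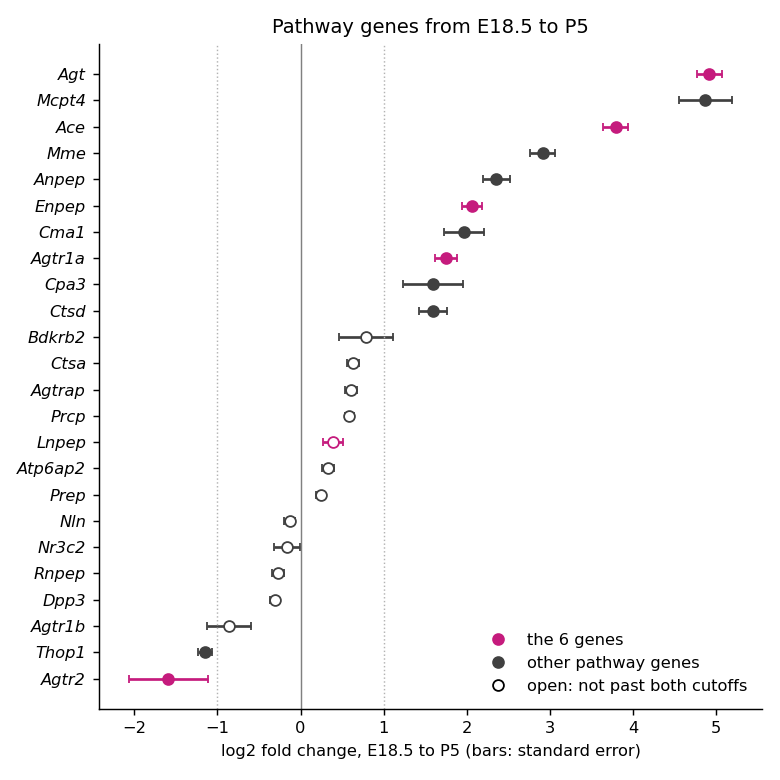
Fitted log2 changes between E18.5 and P5 (x axis, bars for the standard error) of the 6 genes and of the 18 other pathway genes that passed the filter, in order of size. *Agt* stood at the top with 4.92 and *Agtr2* at the bottom with -1.59; filled points passed both cutoffs.

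For each of the 6 genes, the 3 genes with the most similar pattern were sought among 12147 others with a mean of at least 5 CPM, by Pearson's r of log2(CPM + 1) over the 12 libraries. The libraries fall into a prenatal and a postnatal cluster, so r is given only as the measure of likeness. *Ace* was most like *Ager*, a gene of AT1 cells (r = 0.999), *Aqp1*, a water channel gene, and *Sftpb*, a surfactant protein gene. *Agt* was most like *Lyz1*, a lysozyme gene of AT2 cells (r = 0.999), *Sept4* and *Gm43085*. *Enpep* was most like *Lipg*, which encodes endothelial lipase (r = 0.997), *Ntn4*, a netrin of basement membranes, and *Prkce*. *Agtr1a* was most like *Adamtsl3* (r = 0.993), *Tpst2* and *Tacc1*. *Lnpep* was most like *Fryl* (r = 0.991), *Rnf213* and *Lyst*. For *Agtr2* the likeness was weaker, with *Csrp2* (r = 0.956), *Pnkd* (r = 0.938) and *Mrpl34* (r = 0.935). With a pseudocount of 0.1 or a mean of at least 20 CPM, 2 or 3 of the 3 genes were the same for each of the 6.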

How the data were processed

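Lung RNA was sequenced as paired-end reads by the authors, who aligned it to mm10 with TopHat2 2.1.1 and Bowtie2 2.3.4 and counted it on Gencode genes with HTSeq 0.10.0. They deposited whole counts for 16152 genes, without normalization, and CPM, each count divided by the mapped reads of the library, for 51825 genes. The counts held between 41337443 and 53901957 reads per library, and the mapped reads behind the CPM lay between 48436716 and 62279460. Within 0.01 reads, 100% of the CPM values above 0 were whole reads. A deposited table of splicing events was not used, since it gives no gene for an event. Symbols and positions came from Gencode vM21 on GRCm38, the same assembly as mm10, and 99.6% of identifiers matched a symbol.

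Levels are the deposited CPM. Differences were tested on the counts with edgeR 4.0.16 (quasi-likelihood test, TMM) in R 4.3.3, in one fit of 12 libraries over 15994 genes, with Benjamini-Hochberg FDR over all of them. Fold changes in words are ratios of mean CPM, whereas log2 fold changes are fitted values after TMM scaling and differ slightly from them. The standard error is the log2 fold change over the root of its F statistic, and Mcpt4 and other genes with few counts depend on edgeR's prior count. The fit was tested on simulated data. Ratios within a library used counts plus 0.5 and the exact permutation test. A limit from a count of 0 is 3 counts and covers counting error only. The 6 genes, the pathway list and the marker lists were chosen with earlier results of these data known. Genes were named by a rule: all 6, the listed pathway genes called in a comparison, with *Ren1*, *Atp6ap2*, *Agtr1b* and *Mas1* in any case, and marker genes beside a result. 1 gene of the pathway list and 1 of the B cell list are not reported here and are left out of the counts and sums of these lists. With 1 litter per time-point, p-values measure the spread within a litter. Alternatives were DESeq2 1.42.0, other scalings and filters, pairwise fits, a replicate block and fits without single libraries or without libraries with thymus, heart or adipose genes.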

Additional observations from a re-analysis of the deposited data

How the results depend on the processing

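Of the 96 counts of the 6 genes recomputed under 24 alternatives in 4 comparisons, 92 stayed within 1.5 times the main count. From E15.5 to E18.5, where *Ace* alone was called, the count was 4 at the FDR cutoff alone, 2 without the 3 libraries with thymus genes (E15.5 replicate 2, P8 replicates 1 and 2), and between 1 and 2 when a library was left out. For the other pathway genes the count from E15.5 to E18.5 was 2, and 9 at the FDR cutoff alone, 1 in a fit of only these time-points, 1 without the 2 libraries with heart genes, and between 1 and 3 when a library was left out. At the FDR cutoff alone it was 16 from E18.5 to P5 (7 with the fold cutoff), 5 from P5 to P8 (0 with it) and 16 from E15.5 to P8 (8 with it). From E18.5 to P5, 12 of the 18 were higher and 4 lower, against 35.4% and 35.7% of tested genes. From E15.5 to E18.5, 6 were higher, against 11.6% of tested genes, and 3 lower. From E15.5 to P8, 13 were higher, against 37.6%, and 3 lower.

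Signs turned only where a difference was small or, for *Agtr2*, spread widely. *Agtr2* from E15.5 to E18.5 was at -0.29, between -0.62 and 0.27 when a library was left out (0.27 without E15.5 replicate 2), and at 0.27 without the thymus libraries and 0.74 without the heart libraries. From P5 to P8 it was at 0.48, and at -0.65 without the thymus libraries and -0.56 without the 3 libraries with adipose genes. Over P5 to P8, *Ace* (0.07) was at -0.0074 without P5 replicate 3 and between -0.022 (without P8 replicate 3) and 0.15 when any library was left out. *Lnpep* (0.02) was between -0.051 (without P5 replicate 2) and 0.076 when a library was left out, at -0.010 without P8 replicate 2, -0.021 without the thymus libraries and -0.022 without the adipose libraries. *Enpep* (-0.23) was at 0.030 without the thymus libraries and 0.041 without the adipose libraries, and from E15.5 to E18.5 (0.07) it was between -0.053 (without E18.5 replicate 1) and 0.15 when a library was left out and at -0.020 without the heart libraries. *Lnpep* between E15.5 and E18.5 had an edgeR FDR of 0.059 in a fit of only these time-points and of 0.071, 0.24 and 0.064 without the thymus, heart and adipose libraries, and between E18.5 and P8 of 0.11 without the adipose libraries. The cause was not tested.

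With a replicate block the counts of the 6 genes were 1, 5, 0 and 5 in the 4 comparisons, as without it, and no call of the 6 changed. The replicate numbers share only a number: over 18 pairs of libraries with the same number, the correlation of their deviations lay between -0.361 and 0.287, was over 0.1 in 3, and 4 of the 18 were best with their own number. Leaving out the heart or adipose libraries and using reads recovered from the CPM were chosen after seeing the data; the recovered reads were the deposited counts and gave 1, 5, 0 and 5. Another scaling moved the median of all genes by at most 0.085 on the log2 scale. 1 litter per time-point, genes of other tissues in some libraries, and 93 to 150 counts of *Agt* per library at E15.5 limit the values, *Agtr2* most.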
